A study of Mus musculus with 12 samples.

Results

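Cytosolic ribosomal protein genes were followed through 12 RNA-seq libraries of mouse embryonic fibroblasts on day 7 of a reprogramming experiment. The members were the protein-coding genes whose symbol was Rpl or Rps followed by a number, with an optional a, x or l, together with Rplp0, Rplp1, Rplp2, Rpsa and Rpl22l1. This rule took 81 of the 24207 genes in the deposited count table. Of these, 76 were canonical subunit genes, 30 of the small and 46 of the large subunit, and 5 were paralogs of a canonical gene: Rpl22l1, Rpl39l, Rpl3l, Rps27l and Rps4l. The genes lay on 19 chromosomes, 4 of them (Rps4x, Rpl10, Rpl36a and Rpl39) on the X.

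All cells were fibroblasts of strain C57BL/6 that carried FUW-OSKM and FUW-M2rtTA, lentiviral vectors from which doxycycline induces Oct4, Sox2, Klf4 and Myc (OSKM). There were 4 groups of 3 libraries. Uninduced cells and induced controls both had a scrambled hairpin, and the other induced cells had a hairpin against Trim28, or hairpins against both Trim28 and Setdb1. All groups grew in ES medium on a layer of irradiated feeders, and the labels do not say whether feeder cells were removed. Trim28 is a corepressor recruited to DNA by zinc finger proteins, and Setdb1 is the enzyme it recruits to methylate histone H3. The labels do not say that replicates were separate cultures, so each p-value reflects the spread among the deposited libraries and nothing beyond it, and that spread may be technical.

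A ribosome has a small subunit, which reads the messenger RNA, and a large subunit, which forms the peptide bond, and each canonical ribosomal protein is built into one of them. Because the proteins are needed in equal numbers, their mRNAs are among the most uniformly regulated in the cell. Most begin with a run of pyrimidines, the 5′ terminal oligopyrimidine tract, through which growth signals control their translation rather than their level. A few genes have duplicated copies that are expressed in particular tissues, and such paralogs can replace the parent protein in a ribosome.

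The coding sequences of the paralogs show how well their reads can be told from those of the parent. Those of Rpl39, which encodes a very small protein of the wall of the peptide exit tunnel, and of Rpl39l, its copy known for its abundance in testis, are printed from the GENCODE transcripts for GRCm38, 5′ to 3′, with capitals at the bases that differ.
Rpl39: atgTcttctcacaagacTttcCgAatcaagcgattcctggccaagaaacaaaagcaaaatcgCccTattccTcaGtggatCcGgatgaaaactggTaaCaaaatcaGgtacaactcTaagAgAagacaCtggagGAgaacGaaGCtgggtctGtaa
Rpl39l: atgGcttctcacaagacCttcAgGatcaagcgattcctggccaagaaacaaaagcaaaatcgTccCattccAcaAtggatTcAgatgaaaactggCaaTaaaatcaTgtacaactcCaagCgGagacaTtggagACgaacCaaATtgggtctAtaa
Of 156 bases, 23 differed (85.3% identity), in 21 of 52 codons, and the longest stretch the pair shared was 38 bases. The second pair is Rps27, a zinc-binding protein of the small subunit, and Rps27l, its copy known as a target of the tumour suppressor p53.
Rps27: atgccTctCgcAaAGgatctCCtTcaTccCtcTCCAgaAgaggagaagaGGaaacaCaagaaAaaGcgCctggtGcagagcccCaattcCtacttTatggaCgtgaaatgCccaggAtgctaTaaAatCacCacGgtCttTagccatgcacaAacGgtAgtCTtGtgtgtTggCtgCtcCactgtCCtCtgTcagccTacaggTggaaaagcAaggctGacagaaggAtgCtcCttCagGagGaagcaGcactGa
Rps27l: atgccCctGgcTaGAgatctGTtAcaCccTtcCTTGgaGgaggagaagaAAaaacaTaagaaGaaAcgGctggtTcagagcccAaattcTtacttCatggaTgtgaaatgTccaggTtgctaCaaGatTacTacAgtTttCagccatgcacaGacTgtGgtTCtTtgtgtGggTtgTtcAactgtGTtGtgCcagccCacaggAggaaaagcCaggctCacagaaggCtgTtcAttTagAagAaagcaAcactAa
Here 61 of 255 bases differed (76.1% identity), and no shared stretch was longer than 11 bases. Rpl22l1 and Rpl22 were identical at 71.2% of aligned coding bases, and Rpl3l and Rpl3 at 74.4%. Rps4l has no coding sequence in this annotation, which lists it as a transcribed processed pseudogene although the deposited table calls it protein-coding. Its transcript matched the coding sequence of Rps4x at 80.1% of 789 aligned bases, with a longest shared stretch of 35. Read length and the handling of reads with several matches are not given in the sources used here, so some reads of Rpl39l and Rps4l may be uncertain.

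The start sites of these genes were searched for the pyrimidine tract that is known from this family. Each window below holds 60 bases before and 30 bases from the RefSeq transcription start (GRCm38.p6), 5′ to 3′ on the gene's strand, and capitals mark the longest run of C and T that touches the 10 bases on either side of the start.
Rpl39, chrX:37085193-37085282, minus strand: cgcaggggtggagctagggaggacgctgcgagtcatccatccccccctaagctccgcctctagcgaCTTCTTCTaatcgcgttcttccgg
Rpl39l, chr16:10170168-10170257, plus strand: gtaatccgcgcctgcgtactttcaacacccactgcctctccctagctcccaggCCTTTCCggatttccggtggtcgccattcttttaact
Rps27, chr3:90213619-90213708, minus strand: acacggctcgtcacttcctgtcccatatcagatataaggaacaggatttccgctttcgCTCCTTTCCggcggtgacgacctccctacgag
Rps27l, chr9:66946026-66946115, plus strand: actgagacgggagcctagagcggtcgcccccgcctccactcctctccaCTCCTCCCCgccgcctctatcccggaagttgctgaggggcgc
Rpl22l1, chr3:28805448-28805537, plus strand: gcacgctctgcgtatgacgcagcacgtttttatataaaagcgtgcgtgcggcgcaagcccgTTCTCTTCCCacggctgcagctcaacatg
Rpl38, chr11:114668520-114668609, plus strand: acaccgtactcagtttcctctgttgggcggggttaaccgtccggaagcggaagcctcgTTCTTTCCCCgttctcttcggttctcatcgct
The runs were 8 bases long in Rpl39, 7 in Rpl39l, 9 in Rps27 and Rps27l, and 10 in Rpl22l1 and Rpl38. Those of Rps27 and Rpl38 span the annotated start. Those of Rpl39l and Rps27l lie wholly before it, and those of Rpl39 and Rpl22l1 begin after it. A run near the start is therefore not shown to be a tract at the end of the mRNA. A promoter entry was found for 60 of the 81 members, 56 of them canonical. A run of at least 8 pyrimidines that touched this stretch around the start was present in 44.6% of these 56 canonical genes. The shares were 13.8% of the 10582 tested genes with an entry and 13.2% of 68 mitochondrial ribosomal protein genes. Over the 250 bases before and 50 bases from the start, the motif CCGGAA, searched on both strands, stood in 50% of the canonical genes, 55.9% of the mitochondrial ribosomal protein genes and 26.8% of all tested genes with an entry. The motif CACGTG, the site class bound by Myc and its partner Max, stood in 8.93% of the canonical genes and 10% of all genes. TATAAA in the 50 bases before the start was in none of the 56 canonical genes and 1.67% of all genes, and Rpl22l1 was the member that held it. These matches are descriptions of the letters, not sites in use.

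Depth was 11906701 to 19191649 counted reads per library. Trim28 was at 221 to 266 CPM (read counts scaled by library size) in uninduced cells, 286 to 362 in induced controls, 52.2 to 64.1 with its hairpin and 95.6 to 107 with both hairpins. Setdb1 was at 76.4 to 84.5 CPM in induced controls, 121 to 124 with the Trim28 hairpin and 54.1 to 70.1 with both hairpins. Trim28 was thus less reduced in the double knockdown than with its hairpin alone, by 0.82 on the log2 scale (edgeR adjusted p = 4.3e-05). Of the 4 factors, Pou5f1, Sox2, Klf4 and Myc rose on induction by 4.64, 3.87, 1.83 and 2.5 on the log2 scale (edgeR adjusted p 4.93e-14, 1.23e-10, 1.26e-10 and 1.31e-11). Of 11 fibroblast markers, all were tested, and their summed level was 23944 to 27839 CPM in uninduced cells, 16355 to 23468 in induced controls, 13220 to 14837 with the Trim28 hairpin and 17274 to 20089 with both hairpins. The markers of epithelial cells summed to 7.31 to 8.48 CPM before and 1600 to 2020 CPM after induction in controls. The part of these marker shifts in the results below was not tested, and in bulk RNA fewer cells of a type and less RNA per cell cannot be told apart.

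Replicate 3 of the uninduced cells and replicate 2 of the induced controls stood apart from the other 10 libraries among the ribosomal protein genes. The SD of the 76 canonical genes' log2 CPM around each gene's mean over the libraries was 0.23 and 0.20 in this pair, and 0.06 to 0.10 elsewhere. In the uninduced library 19 canonical genes lay more than 0.25 from their mean, in the induced library 15, and in the others 0 to 3. Rps2, at the entrance of the mRNA channel, was the lowest gene in both: it was at 64.3, 75.7 and 39.2 CPM in the uninduced cells and at 70.7, 35.6 and 77.5 CPM in the induced controls. Rpl39 went the other way, at 201, 195 and 290 CPM and at 174, 246 and 182 CPM. Across the 76 canonical genes, the deviation fell with the GC content of the transcript in the same libraries (Pearson r = -0.39 and -0.41, Spearman rho = -0.40 and -0.43), while r was 0.07 to 0.47 in the other 10. Such genes share library and depth, so this is a description, and the part of GC content in any result below was not tested. The induced library was also the shallowest, at 11906701 reads, whereas the uninduced one had 16383264, and both had the highest mitochondrial shares, 2.37% and 2.27% against 1.78% to 2.01%. Results that change without this pair of libraries are given with and without it, a choice made after the data were seen.

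**Figure D1:**
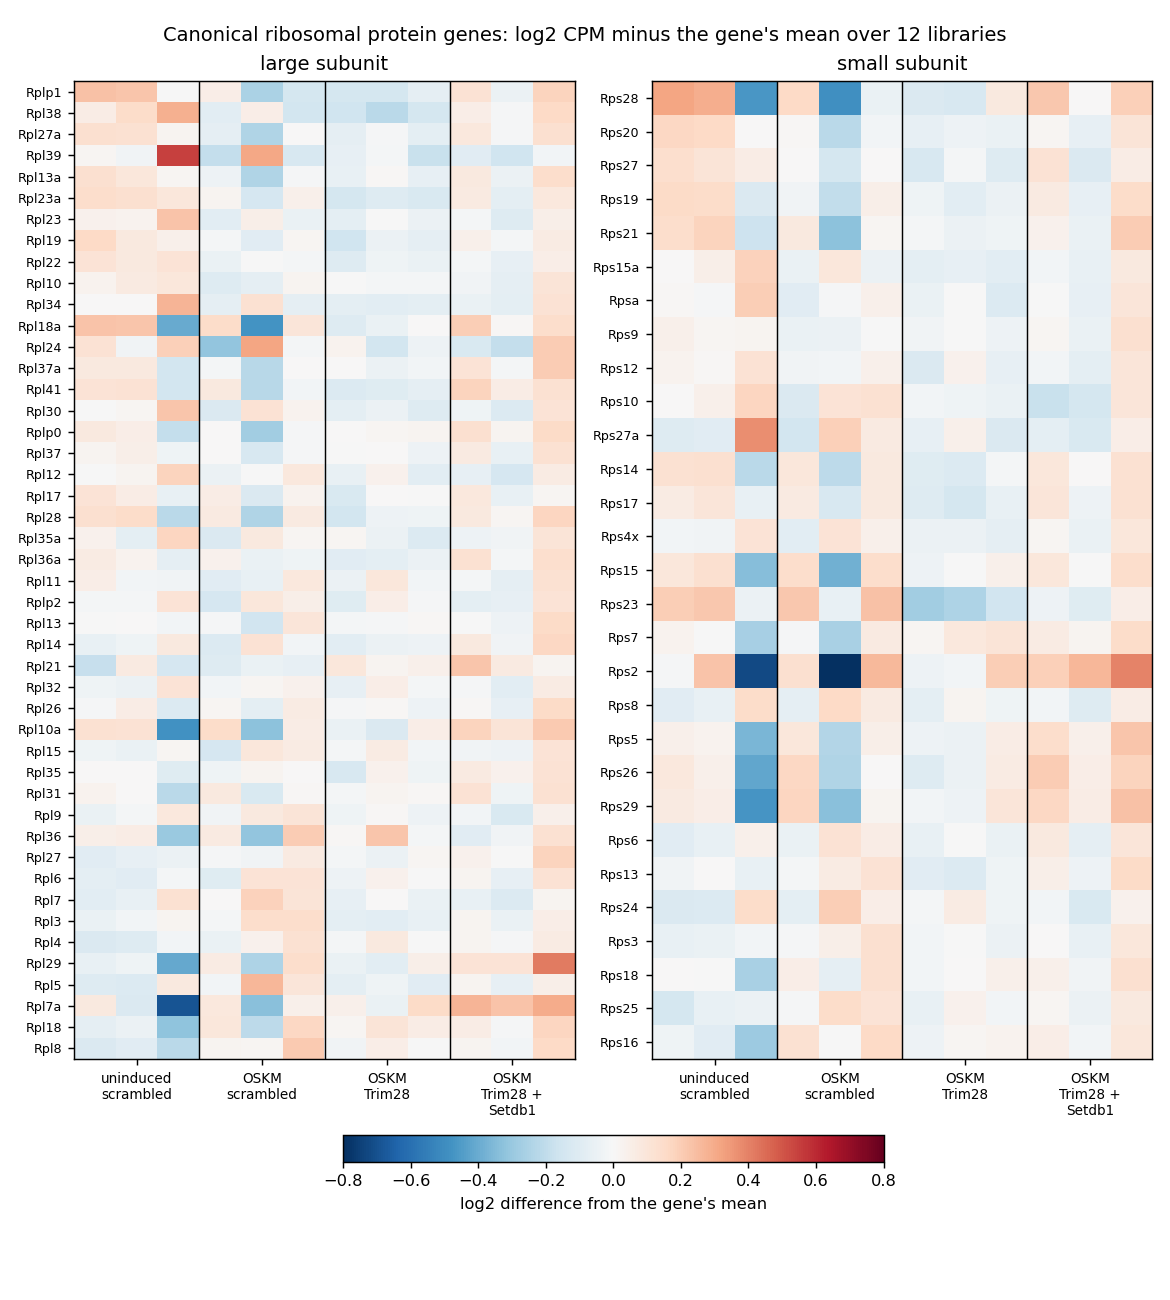
Each row is a canonical ribosomal protein gene (75 of 76 are drawn) and each column a library, 3 per group in replicate order; colour gives the log2 CPM minus the gene's mean over 12 libraries, from -0.8 (blue) to 0.8 (red, with values beyond shown at the end of the scale), with rows ordered by the log2 fold change on induction. The widest deviations lie in replicate 3 of the uninduced cells and replicate 2 of the induced controls, where Rps2 sat at -0.72 and -0.86.

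The canonical genes were highly expressed and together took a narrow share of the reads. All 81 members held 3.04% to 3.17% of counted reads in uninduced cells (mean 3.12% ± 0.0697, SD, n = 3), 3.27% to 3.53% in induced controls (3.38% ± 0.131), 3.21% to 3.31% with the Trim28 hairpin (3.27% ± 0.0556) and 3.20% to 3.57% with both hairpins (3.37% ± 0.187). The 3 uninduced libraries were thus the lowest, without overlap with any induced library, while the induced groups overlapped each other. This order holds for shares of library totals. The TMM scaling factors used for CPM and tests were 0.943 to 0.949 in uninduced and 0.99 to 1.042 in induced libraries. With them the median member changed by -0.02 on the log2 scale between uninduced cells and induced controls. Per kilobase of transcript, the canonical genes had a median of 464 CPM, with quartiles at 324 and 690. The highest were Rplp1, at 2108 CPM per kilobase, Rplp0, at 1038, and Rpl13a, at 1012. Rplp0 and Rplp1 belong to the stalk of the large subunit, which recruits elongation factors, and Rpl13a is a large-subunit protein also known for silencing inflammatory mRNAs. The lowest were Rpl21, at 12.8 CPM per kilobase, Rpl29, at 44.1, and Rpl7a, at 57.0, all of the large subunit. The reference names 15 pseudogenes of Rpl21, 3 of Rpl29 and 13 of Rpl7a. The most, 24 each, were named for Rps12 and Rpl31, which were not low, at 945 and 448 CPM per kilobase. The 153 ribosomal protein pseudogene rows of the table held 8023 reads, 0.123% as many as the 6547401 of the members. Whether reads shared with pseudogenes were dropped from Rpl21, Rpl29 or Rpl7a was not tested. The remaining stalk protein, Rplp2, was at 816 CPM per kilobase, and Rpsa, a small-subunit protein also known as a laminin receptor, at 373.

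Induction of the 4 factors moved few canonical genes, and by small amounts. In the comparison of induced controls with uninduced cells, 65.3% of the 14520 tested genes passed the edgeR quasi-likelihood test at an adjusted p under 0.05. Of the 80 members tested, 5 rose and 7 fell, against 32.7% of all genes in each direction. The canonical genes gave 3 rises and 5 falls among 76, with a median log2 fold change of -0.02, the same as for all genes. Their middle quartiles spanned 0.15 log2 units against 0.89 for all genes, and 75 of 76 lay within 0.25 log2 units of no change, against 31.6% of all genes. The median standard error was 0.073 for canonical genes and 0.11 for all genes, so the low count of calls went with estimates at least as precise. The numbers depend on scaling: with library totals in place of TMM factors, 22 members rose and 1 fell, the median member was at 0.11, and the median of all genes moved from -0.02 to 0.11. All genes then split into 5829 rises (40.1%) and 3619 falls (24.9%), 65.1% in all. Without the pair of libraries that stood apart, 5 members rose and 7 fell, beside 64.9% of all genes, 32.7% higher and 32.2% lower. Of these 12 calls 9 were shared with the analysis of all libraries: Rpl13a, Rps25 and Rpl22l1 lost theirs, and Rpl18 (0.19), Rpl5 (0.15) and Rps28 (-0.25) gained one (edgeR adjusted p 0.0168, 0.0399 and 0.0208).

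Rps16, a small-subunit protein, was at 368, 353 and 308 CPM in uninduced cells and at 409, 376 and 421 CPM in induced controls. All induced controls were above all uninduced libraries, and the gene rose by 0.23 ± 0.071 (SE) on the log2 scale (edgeR adjusted p = 0.00948), a call kept in all 20 alternative analyses. Rpl8, a large-subunit protein near the peptidyl transferase centre, was at 642, 651 and 598 CPM and then at 705, 702 and 802 CPM. These did not overlap either, with a rise of 0.22 ± 0.070 (edgeR adjusted p = 0.0107), but the call was lost when the third induced control was left out (adjusted p = 0.0697). Rps25, which helps some viral and cellular messages to start without a cap, was at 357, 377 and 380 CPM and then at 390, 436 and 424 CPM, a rise of 0.16 (edgeR adjusted p = 0.0304). The call was lost in 7 of 20 alternatives: leaving out replicate 1 or 2 of the uninduced cells, replicate 2 or 3 of the induced controls or the pair of libraries (adjusted p = 0.0502), upper-quartile factors, and no filter. Rps25 overlaps Ccdc84, which had at most 5.77 CPM.

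Of the 5 canonical genes that fell, 4 are given by the size of the fall. The stalk protein Rplp1 was at 1233, 1220 and 1044 CPM in uninduced cells and at 1086, 876 and 948 CPM in induced controls, so the groups overlapped. It fell by 0.26 on the log2 scale (SE 0.087, edgeR adjusted p = 0.0137). Rpl38, known for its role in translating Hox mRNAs, was at 180, 191 and 210 CPM and then at 163, 179 and 156 CPM, without overlap, and fell by 0.23 (edgeR adjusted p = 0.0123). Rpl27a and Rps20 fell by 0.19 and 0.18 (edgeR adjusted p = 0.0225 and 0.0354). Rpl13a, the fifth, was at 1069 to 1155 CPM and then at 894 to 1052 CPM, and its change of -0.17 (edgeR adjusted p = 0.0472) was lost in 12 of 20 alternatives. With library totals none of these 5 falls passed the test. The calls of Rplp1, Rpl27a and Rps20 were lost without replicate 1 or 2 of the uninduced cells and without replicate 2 of the induced controls; for Rplp1 the edgeR adjusted p was 0.0606, 0.0555 and 0.0643. Rps20 was lost in 9 of 20 alternatives, which also included library totals, RLE factors (adjusted p = 0.0639), DESeq2 (adjusted p = 0.0528) and leaving out any 1 of the Trim28 hairpin libraries (adjusted p 0.0543 to 0.0558). That of Rpl38 was lost without replicate 3 of the uninduced cells (adjusted p = 0.0587) and when the third induced control was dropped (adjusted p = 0.0681).

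The other named canonical genes did not pass the test on induction. Rplp0 had 1391 ± 141 CPM (SD, n = 3) in uninduced cells and 1322 ± 142 in induced controls, Rplp2 changed by -0.02 and Rpsa by -0.08 on the log2 scale. The X-linked genes Rps4x, Rpl10, Rpl36a and Rpl39 had log2 fold changes of 0.00, -0.11, -0.03 and -0.19 (edgeR adjusted p 0.954, 0.116, 0.733 and 0.235). The genes with the lowest levels per kilobase, Rpl21, Rpl29 and Rpl7a, had values of 0.00, 0.16 and 0.16, the last of them with a standard error of 0.15. Small-subunit genes had a median of 0.01 and large-subunit genes of -0.03.

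**Figure D2:**
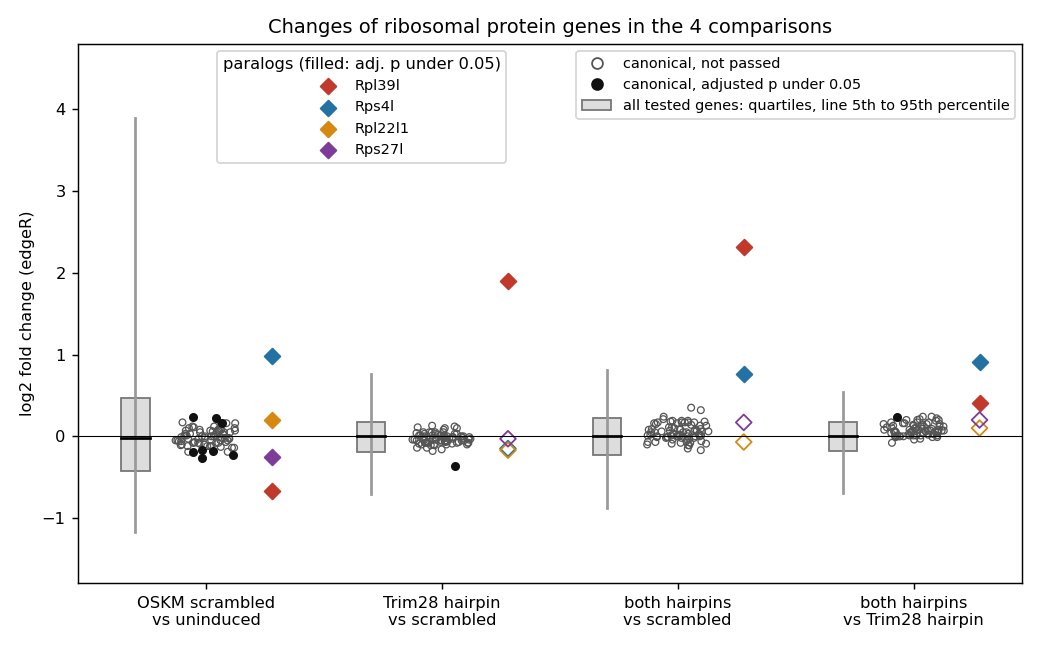
The vertical axis is the log2 fold change from edgeR in the 4 comparisons; circles are the 76 canonical genes (filled where the adjusted p was under 0.05), diamonds the 4 tested paralogs, and the grey box and line the quartiles and the 5th to 95th percentile of all 14520 tested genes. Canonical genes crowd around 0 in every comparison, while Rpl39l reaches 1.9 and 2.32 in the comparisons of the knockdowns with the induced controls.

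All 4 tested paralogs passed the test on induction, 2 higher and 2 lower, beside 65.3% of all genes. With all libraries none of their parents did, but Rpl39 passed without replicate 2 of the induced controls (-0.35, edgeR adjusted p = 0.0183) and without a filter (adjusted p = 0.0323), and Rpl22 passed with upper-quartile factors (adjusted p = 0.0439) and with the stricter filter (adjusted p = 0.05 after rounding). Rps4l, an autosomal copy of the X-linked small-subunit gene Rps4x, lies on chromosome 6 from 148354656 to 148355598 as the deposited table gives it. It was at 25.1, 24 and 18.8 CPM in uninduced cells and at 48.3, 35.8 and 49.8 CPM in induced controls. The groups did not overlap, and Rps4l rose by 0.98 ± 0.13 (edgeR adjusted p = 3.61e-06), a call kept in all 20 alternatives. Rps4x was at 785 to 863 and 755 to 864 CPM, with a log2 fold change of 0.00 (edgeR adjusted p = 0.954). Rps4l overlaps Tmtc1, and without stranded counting reads of overlapping genes cannot be told apart. Tmtc1 went the opposite way, from between 16.1 and 17.2 CPM to between 4.25 and 5.32 CPM.

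Rpl39l lies on chromosome 16 from 10170226 to 10174911 as the deposited table gives it, and no other row of the table overlaps it. It was at 4.68, 5.01 and 4.34 CPM in uninduced cells and lower in each induced control, at 3.16, 2.92 and 2.75 CPM. The fall was 0.67 on the log2 scale (SE 0.17, edgeR adjusted p = 0.00245) and was kept in all 20 alternatives. Its parent Rpl39 overlapped between the groups, as given above.

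Rps27l was at 192, 203 and 219 CPM in uninduced cells and at 164, 183 and 168 CPM in induced controls. Every control was below every uninduced library, and Rps27l fell by 0.25 (SE 0.070, edgeR adjusted p = 0.00453), a call lost only with library totals among the 20 alternatives (adjusted p = 0.138). Its parent Rps27, at 131 to 138 CPM and then 114 to 126 CPM, had a log2 fold change of -0.14 and did not pass the test (edgeR adjusted p = 0.0923). All 10 p53 target genes on a list that does not hold Rps27l fell in the same comparison, beside 32.7% of all genes. Among them were Mdm2, the ubiquitin ligase that degrades p53, by 1.05 and Ccng1 by 0.81 (edgeR adjusted p 1.78e-09 and 3.39e-06). Whether p53 had a part in the fall of Rps27l was not tested.

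Rpl22l1, known for its part in blood cell development beside Rpl22, was at 85.4, 85.9 and 83.3 CPM in uninduced cells and at 102, 98.8 and 90.7 CPM in induced controls. It rose by 0.20 ± 0.076 (edgeR adjusted p = 0.0329), without overlap, but the call was lost in 8 of 20 alternatives, among them leaving out any 1 of the uninduced libraries, replicate 1 or 2 of the induced controls, or the pair that stood apart (adjusted p = 0.0953). Rpl22 was at 314 to 321 and 286 to 297 CPM, with a log2 fold change of -0.12 (edgeR adjusted p = 0.0645). Rpl3l, a copy of Rpl3 known from heart and skeletal muscle, had 3 reads over all 12 libraries and was not tested, while Rpl3 was at 747 to 872 CPM. Of 8 striated muscle markers 5 were tested, of which 3 rose and 1 fell on induction, beside 32.7% of all genes in each direction. With both hairpins 1 marker rose and 2 fell, beside 18.1% of all genes higher and 18.5% lower. Acta1 made up most of the markers' summed level with both hairpins, 36.9 to 46.5 of 48.5 to 58.8 CPM. Ckm was at 0 to 0.081 CPM and Myh7 at 0 to 0.19 CPM in the 12 libraries.

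**Figure D3:**
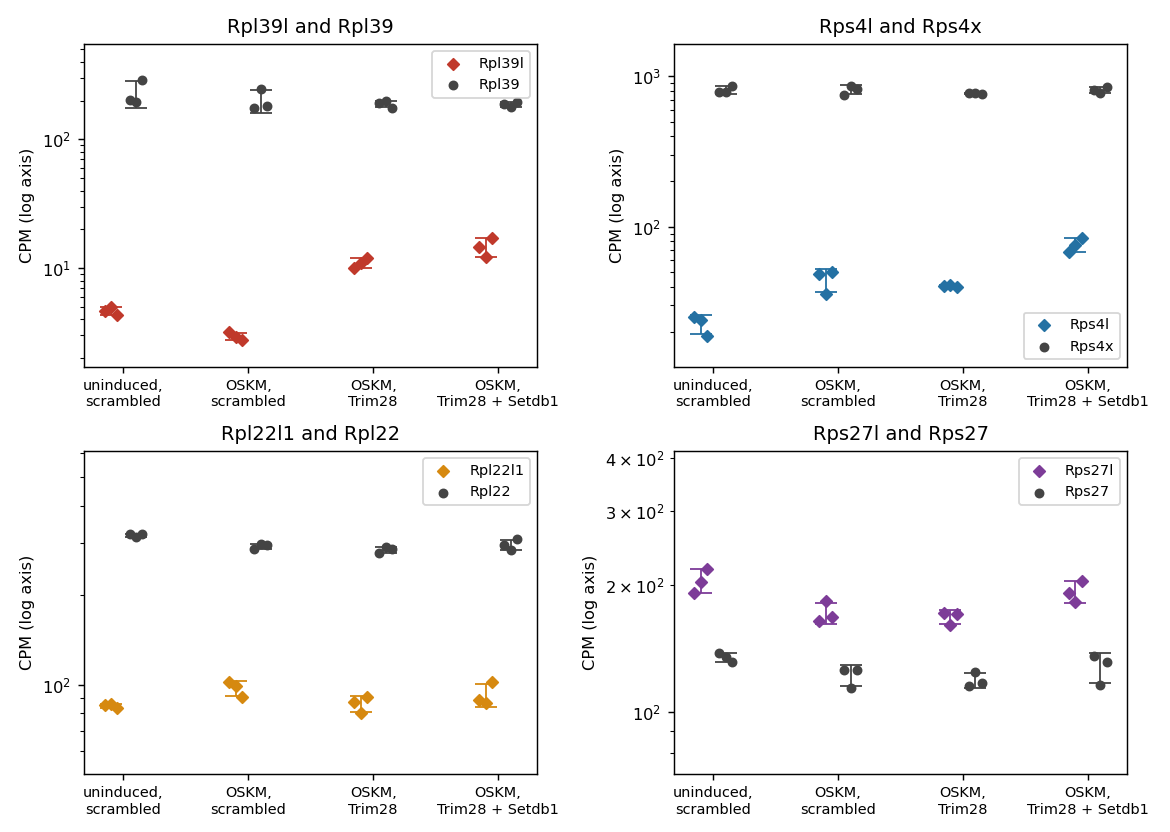
CPM on log axes in each of 3 libraries per group for 4 paralogs (diamonds) and their parents (circles), with bars at the mean ± SD. Rpl39l and Rps4l sit far below their parents and change most, whereas Rps27l lies above Rps27 in every group.

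With the knockdown hairpins nearly all canonical genes stayed in place, while Rpl39l rose. The comparisons of the knockdowns share the induced controls, so their values are set side by side without being counted as separate evidence. By the labels, both knockdown groups had the same Trim28 hairpin, and 1 hairpin was used against Setdb1. Loss of the target and other effects of a hairpin therefore cannot be told apart. With the Trim28 hairpin, 24.9% of all tested genes passed the test, 13.1% higher and 11.8% lower, while 1 of 80 members rose and 1 fell. With both hairpins 36.7% of all genes passed, 18.1% higher and 18.5% lower, while 2 members rose and 0 fell. No canonical gene passed in that comparison in the main edgeR fit or by DESeq2, although 6 were higher and 0 lower at an unadjusted p under 0.05 in edgeR. The canonical medians were -0.04 and 0.05 beside 0.00 and 0.00 for all genes, and 75 and 74 of 76 canonical genes lay within 0.25 log2 units of no change against 61.9% and 53.7% of all genes. Without the pair of libraries that stood apart, 1 member rose and 7 fell with the Trim28 hairpin (30.5% of all genes called, 16.1% higher and 14.3% lower), and 5 rose and 1 fell with both hairpins (38.8% called, 19.5% higher and 19.3% lower). Canonical genes called there with both hairpins were Rpl38 (0.19), Rpl7a (0.20) and Rps23 (-0.26), with edgeR adjusted p 0.0191, 0.0384 and 0.00223. With library totals, 1 rose and 2 fell with the Trim28 hairpin (25% of all genes called, 12.2% higher and 12.8% lower), and 2 rose and 1 fell with both (37.2% called, 14.6% higher and 22.6% lower).

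Rpl39l was at 3.16, 2.92 and 2.75 CPM in induced controls, at 10.1, 10.9 and 12 CPM with the Trim28 hairpin, and at 14.7, 12.2 and 17.1 CPM with both hairpins. The 3 groups did not overlap. Against the induced controls the rise was 1.9 ± 0.15 on the log2 scale with the Trim28 hairpin, 3.74-fold (edgeR adjusted p = 1.97e-07), and 2.32 ± 0.15 with both hairpins, 4.98-fold (edgeR adjusted p = 1.14e-08). Both calls were kept in all 20 alternatives, with values of 1.83 to 1.95 and 2.18 to 2.42. Both knockdown groups also stood above the uninduced cells, which were at 4.34 to 5.01 CPM. Rpl39 was at 176 to 197 CPM with the Trim28 hairpin and at 178 to 196 CPM with both, within the 174 to 246 CPM of the induced controls, and its log2 fold changes were -0.10 and -0.10 (edgeR adjusted p 0.665 and 0.597). Since Rpl39l is known from germ cells, 7 germline markers were read beside it. Piwil2 was the only one with enough reads to be tested, and it rose by 0.91 and 0.44 in the same comparisons (edgeR adjusted p 2.61e-05 and 0.00767). The 7 markers summed to 1.09 to 2.46 CPM in uninduced cells, 57.7 to 70.1 in induced controls, 120 to 126 with the Trim28 hairpin and 70.4 to 105 with both, and nearly all of it was Piwil2. The others (Ddx4, Dazl, Sycp3, Mael, Stra8 and Tex101) were at 0 to 1.42 CPM in all libraries. Between the knockdowns Piwil2 fell by 0.47 (edgeR adjusted p = 0.0081).

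Rps4l did not pass the test with the Trim28 hairpin, at 40.5, 40.9 and 39.8 CPM against 48.3, 35.8 and 49.8 CPM in the induced controls, with a log2 fold change of -0.15 (edgeR adjusted p = 0.395). Without the pair of libraries that stood apart the value was -0.28 (adjusted p = 0.0134). With both hairpins Rps4l was at 67.9, 75.7 and 83.7 CPM, above every induced control, and rose by 0.76 ± 0.12 (edgeR adjusted p = 0.000117). Its parent Rps4x was at 771 to 853 CPM there, with a log2 fold change of -0.01. The overlapping Tmtc1 had 2.25 to 3.05 CPM with the Trim28 hairpin and 3.68 to 4.55 CPM with both.

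Rps23, a small-subunit protein at the decoding centre, was the canonical gene that fell with the Trim28 hairpin. It was at 195, 161 and 197 CPM in induced controls and at 138, 141 and 151 CPM with the hairpin, without overlap, and fell by 0.36 (SE 0.088, edgeR adjusted p = 0.00595). The call was kept in all 20 alternatives. With both hairpins Rps23 was at 163, 157 and 174 CPM, overlapping the induced controls, with a log2 fold change of -0.17 (edgeR adjusted p = 0.146). Without the pair of libraries that stood apart this value was -0.26 (adjusted p = 0.00223), so the call with both hairpins depends on them. Rps27l and Rpl22l1 did not pass the test in either comparison: Rps27l had -0.03 and 0.17 (edgeR adjusted p 0.806 and 0.0684, the second at 0.22 with an adjusted p of 0.009 without the pair of libraries), and Rpl22l1 had -0.17 and -0.07 (edgeR adjusted p 0.107 and 0.486).

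In the double knockdown against the Trim28 hairpin alone, 1 canonical gene passed the test. The Trim28 level also differed between these groups, so the Setdb1 hairpin and the lesser loss of Trim28 cannot be told apart. Of all tested genes 21.7% passed the test, 10% higher and 11.7% lower, and of the 80 members 3 rose and 0 fell: Rps4l, Rpl39l and Rpl38. The canonical median was 0.07 beside 0.00 for all genes, and all 76 lay within 0.25 log2 units of no change against 63.3% of all genes. Rps4l rose by 0.91 ± 0.12 (edgeR adjusted p = 6.87e-05), its values of 39.8 to 40.9 and 67.9 to 83.7 CPM lying far apart. Rpl39l rose by 0.41 ± 0.12 (edgeR adjusted p = 0.0259), from between 10.1 and 12 CPM to between 12.2 and 17.1 CPM, but the call was lost when replicate 1 or 2 of the Trim28 hairpin or replicate 1 or 3 of the double knockdown was left out (adjusted p 0.105, 0.0901, 0.0734 and 0.151). Rpl38 was at 155, 149 and 157 CPM and then at 179, 172 and 193 CPM, a rise of 0.24 ± 0.073 (edgeR adjusted p = 0.028) that was lost in 6 of 20 alternatives: library totals, and leaving out any 1 of the Trim28 hairpin libraries or replicate 1 or 3 of the double knockdown. With library totals 2 members rose and 0 fell, beside 21.7% of all genes, 8.14% higher and 13.6% lower. In the same comparison 6 of 11 fibroblast markers rose and 0 fell, and 0 of 7 epithelial markers rose and 7 fell. Their part in these changes was not tested.

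The count in this comparison also moved with libraries outside it, and the cause was not tested. Without replicate 3 of the uninduced cells and replicate 2 of the induced controls, 20 of 80 members rose and 0 fell, 17 of the risers canonical, while 32.6% of all tested genes were called, 16.3% higher and 16.2% lower. The canonical median was 0.07 either way. Among those 17 were Rpl41, the shortest ribosomal protein, at 0.21 (adjusted p = 0.00292), Rpl10a at 0.20 (adjusted p = 0.00896), Rps23 at 0.20 (adjusted p = 0.00908) and Rplp1 at 0.20 (adjusted p = 0.0218), all edgeR values. These genes were picked after their values were seen. Rps27l was also among the 20, at 0.20 (edgeR adjusted p = 0.00943), against 0.20 and an adjusted p of 0.0529 with all libraries.

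The read ratio of each paralog to its parent, taken within a library, does not depend on depth or on the scaling factors. It still carries deviations of single genes in the pair of libraries that stood apart. Those libraries held the lowest Rpl39l and Rps4l ratios of the uninduced cells and of the induced controls. Reads of Rpl39l came to 2.33%, 2.57% and 1.5% of those of Rpl39 in uninduced cells, 1.82%, 1.19% and 1.51% in induced controls, 5.31%, 5.55% and 6.82% with the Trim28 hairpin, and 7.85%, 6.9% and 8.7% with both. Thus Rpl39l had far fewer reads than its parent in every library. The log2 ratio was 1.97 higher with the Trim28 hairpin and 2.38 higher with both hairpins than in induced controls, in 3 of 3 libraries each and without overlap. An exact permutation test of 3 against 3 libraries gave p = 0.1 for each, the smallest it can give (adjusted over 4 pairs, 0.40 and 0.20). Over all 9 induced against 3 uninduced libraries, controls and knockdowns together, the difference was 0.97, with overlap (exact permutation p = 0.164, two-sided, adjusted 0.218). Between induced controls and uninduced cells it was -0.48, with overlap (exact permutation p = 0.3, adjusted 0.40).

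Rps4l reads came to 3.19%, 3.07% and 2.18% of those of Rps4x in uninduced cells and to 4.15% to 6.4% in induced controls, 5.21% to 5.28% with the Trim28 hairpin and 8.39% to 9.81% with both. All 9 induced libraries were above all 3 uninduced ones, with a log2 difference of 1.21 (exact two-sided permutation p = 0.00909, the smallest this design gives, adjusted over 4 pairs 0.0182). Those 9 mix controls with both knockdown groups, so the value is not that of induction alone. Between induced controls and uninduced cells the difference was 0.97, without overlap (exact permutation p = 0.1, adjusted 0.20). Rpl22l1 differed in the same direction by less: its reads were 25.9% to 27.4% of those of Rpl22 in uninduced cells and 27.7% to 35.7% in the 9 induced libraries, a log2 difference of 0.24 (exact permutation p = 0.00909, adjusted 0.0182). With induced controls alone it was 0.32, without overlap (exact permutation p = 0.1, adjusted 0.20). Rps27l had more reads than Rps27 in every library, 130% to 168%, and the log2 difference of -0.07 did not pass (exact permutation p = 0.391, adjusted 0.391). Per kilobase, with transcripts of 537 and 345 bases, Rps27l and Rps27 were at 343 and 364 CPM over the 12 libraries.

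**Figure D4:**
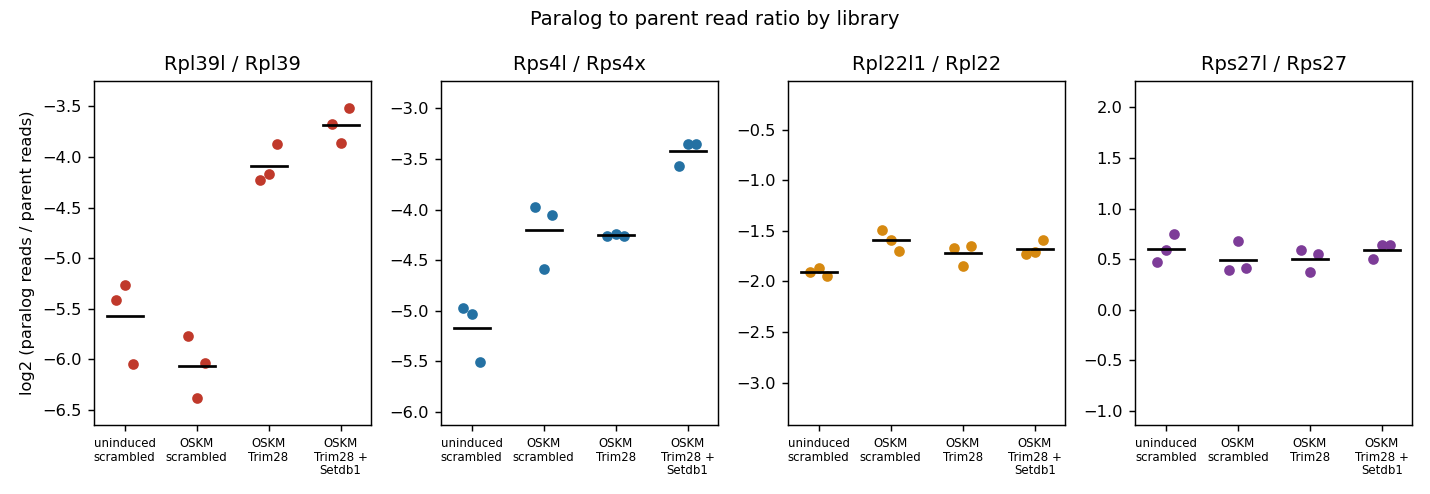
Log2 of the paralog's reads over the parent's reads in each of 3 libraries per group, with a bar at the group mean; the 4 vertical axes cover equal spans. Rpl39l over Rpl39 rises from a mean of -6.06 in induced controls to -4.09 and -3.68 in the knockdowns, Rps4l over Rps4x from -5.17 in uninduced cells to -4.20 in induced controls and -3.42 with both hairpins, and Rps27l over Rps27 stays between 0.49 and 0.60.

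Genes whose products assemble ribosomes were largely higher on induction. Of 54 tested ribosome biogenesis genes, 46 rose (85.2%, beside 32.7% of all genes) and 0 fell, with a median log2 fold change of 0.54. Polr1b, a subunit of RNA polymerase I, was at 19.9 to 22.0 CPM in uninduced cells and 59.0 to 60.6 CPM in induced controls, a rise of 1.49 (edgeR adjusted p = 1.08e-10), and Nolc1, a nucleolar phosphoprotein, rose by 1.15 (edgeR adjusted p = 1.13e-09). Of 76 tested mitochondrial ribosomal protein genes, 31 rose (40.8%) and 6 fell (7.89%), with a median of 0.16, beside 32.7% of all genes in each direction and a median of -0.02. Myc, known to drive ribosome production and 1 of the induced factors, was among the 9 of 18 translation control genes that rose, with Mxi1, an antagonist of Myc, at 1.67 (edgeR adjusted p = 1.02e-10), while 4 fell, among them Rps6kb1, the kinase of ribosomal protein Rps6, by 0.35 (edgeR adjusted p = 0.000652). Of 19 elongation factor and related genes, many with the same pyrimidine tract, 6 rose (31.6%, near the 32.7% of all genes) and 2 fell (10.5%), with a median of 0.10. Hnrnpa1 rose by 0.80 and Eif3l by 0.33, and the filament gene Vim fell by 0.85 (edgeR adjusted p 3.22e-08, 6.54e-05 and 5.31e-08).

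With the Trim28 hairpin, 2 of the 54 biogenesis genes rose and 2 fell (3.7% each, beside 13.1% of all genes higher and 11.8% lower). With both hairpins 0 rose and 12 fell (22.2%, near the 18.5% of all genes called lower; 18.1% were called higher), with a median of -0.12 beside 0.00 for all genes and 0.05 for the canonical genes. Polr1b was then at 40.5 to 49.1 CPM, below every induced control, and fell by 0.43, and Tcof1, which aids ribosomal DNA transcription, fell by 0.39 (edgeR adjusted p 0.000368 for each). Between the knockdowns 0 rose and 3 fell (5.56%), beside 10% of all genes higher and 11.7% lower. Of the 76 tested mitochondrial ribosomal protein genes 0 rose and 4 fell with the Trim28 hairpin. With both hairpins 6 rose and 6 fell, and between the knockdowns 2 rose and 1 fell. The shares of all genes in these comparisons are those just given. Myc, at 0.12 with the Trim28 hairpin (edgeR adjusted p = 0.472), fell by 0.42 with both hairpins (edgeR adjusted p = 0.00647). The counts do not tell reads of the vector's Myc from those of the cell's own gene. Of the 10 p53 target genes, 2 rose with the Trim28 hairpin and 6 with both, beside 13.1% and 18.1% of all genes. How the Myc and p53 target changes relate to the biogenesis genes was not tested.

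The 6 measured partner genes, whose products are ribosomal proteins or close relatives outside the naming rule, gave 2 rises on induction, 33.3% beside 32.7% of all genes: Rpl7l1 by 0.41 and Rpl36al by 0.26 (edgeR adjusted p 1.48e-05 and 0.01). Fau, which encodes Rps30 fused to a ubiquitin-like protein, was at 176 to 198 CPM and then 169 to 194 CPM.

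**Figure D5:**
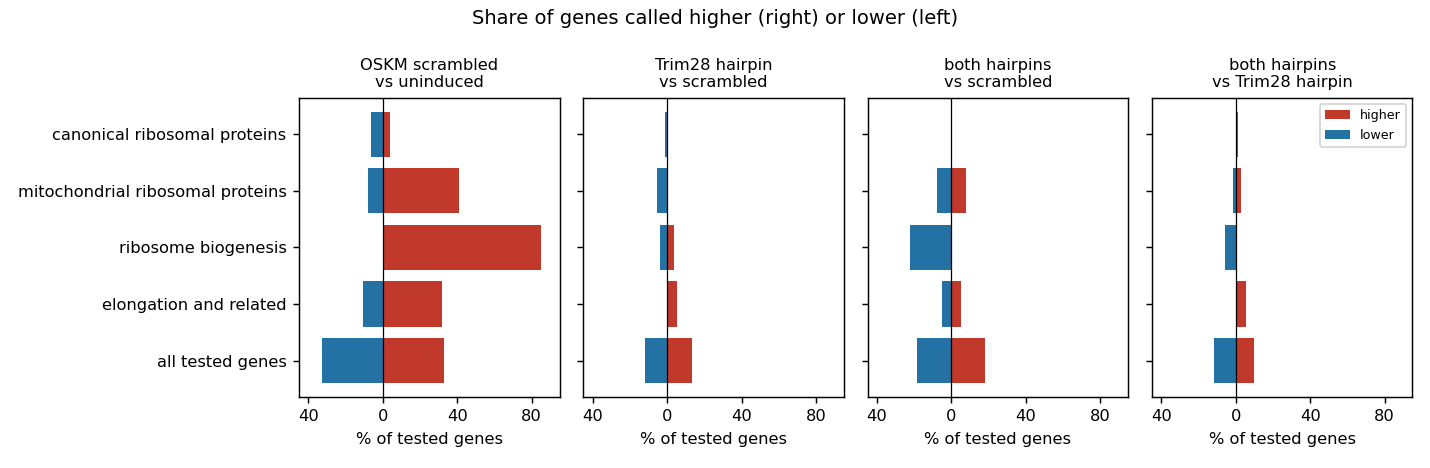
Bars give the percent of tested genes called higher (right) or lower (left) at an edgeR adjusted p under 0.05, by gene list and comparison, with all tested genes at the bottom. On induction 85.2% of ribosome biogenesis genes were called higher against 3.95% of canonical ribosomal protein genes.

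Among themselves the canonical genes varied little within a group. The median coefficient of variation over 3 libraries was 7.81% in uninduced cells, 7.88% in induced controls, 2.89% with the Trim28 hairpin and 5.90% with both, and the largest were those of Rps2, 31.3% and 36.7%, in the groups with a library that stood apart. Transcript length had little relation to the change on induction across the 76 genes (Spearman rho = 0.21, and -0.03, -0.17 and -0.17 in the other comparisons), with medians of -0.03 for the 38 shorter and 0.00 for the 38 longer genes. GC content, 41.3% in Rps20 to 60.8% in Rpl36, had Pearson r of 0.04 with the change on induction, 0.31 and 0.37 with the changes against induced controls, and 0.21 between the knockdowns. These are descriptions across genes of the same libraries.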

How the data were processed

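Whole-number read counts per gene were used as the authors deposited them. Per the submitters' processing notes, TopHat2 2.0.12, Bowtie 1.1 and HTSeq were used; the genome build, annotation and strand setting are not given in the sources used here. Groups came from the sample labels. Tests were run in edgeR 4.0.16 (R 4.3.3) with its quasi-likelihood fit, TMM scaling and 1 term per group over 12 libraries. Genes were kept by filterByExpr (at least 10 counts, total at least 15), leaving 14520. Calls needed an adjusted p (Benjamini-Hochberg over all of these) under 0.05. CPM values used TMM factors, and transcript lengths and GC content came from GENCODE M21 (GRCm38). Paralog ratios used a pseudocount of 0.5 and exact permutation tests (scipy 1.17.1), adjusted over 4 pairs in each of 5 comparisons. Of 6 listed pairs, that of Rpl10l was not analysed here and Rpl3l had too few reads. The 20 alternatives of the fit were RLE or upper-quartile factors, library totals, no filter, a minimum count of 50, DESeq2 1.42.0, a replicate block, leaving out each of 12 libraries, and, added after seeing the data, leaving out 2 libraries at once. The edgeR script was tested on simulated data.

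The members and gene lists were chosen with earlier results of these data known. The rule for named genes took all paralogs and their parents, the Rplp genes, Rpsa, X-linked members, the 3 highest and 3 lowest canonical genes per kilobase, up to 4 called canonical genes in each direction and comparison, and the partner genes. From each pathway list it allowed at most 2 genes in the direction of most calls plus 1 of the opposite sign. Rpl41, Rpl10a, Rps2, Rpl18, Rpl5, Rps28 and Acta1 were named after their values were seen. Results of some named genes are not reported here.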

Additional observations from a re-analysis of the deposited data

How the results depend on the processing

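On induction, 5 members rose and 7 fell. The rises numbered 3 with upper-quartile factors, 22 with library totals, 3 without a filter and 8 with DESeq2, and the falls 1 with library totals, where the median was 0.11. With the Trim28 hairpin the falls numbered 2 with upper-quartile factors, library totals or DESeq2, and 7 without the 2 libraries that stood apart. With both hairpins there were 7 rises without a filter and 1 fall with library totals, and 5 rises and 1 fall without the 2 libraries. Between the knockdowns there were 6 rises without a filter and 20 without the 2 libraries. Leaving out 1 library at a time gave 3 to 8 rises and 3 to 9 falls on induction, 1 to 3 falls with the Trim28 hairpin, 2 to 6 rises and 0 to 1 falls with both hairpins, and 1 to 5 rises between the knockdowns. On induction the rises moved most without replicate 1 or 2 of the uninduced cells or replicate 1 or 3 of the induced controls, and the falls without replicate 1 or 2 of the uninduced cells or replicate 2 of the induced controls. With the Trim28 hairpin these were replicates 1 and 2 of the induced controls, and with both hairpins the same 2 and replicate 3 of the uninduced cells. Between the knockdowns, leaving out replicate 1 or 2 of the Trim28 hairpin or replicate 1 or 3 of the double knockdown gave 1 rise, and leaving out replicate 3 of the uninduced cells, replicate 2 of the induced controls or replicate 2 of the double knockdown gave 5. For the ratio over all induced libraries, Rps4l over Rps4x differed by 1.12 and Rpl22l1 over Rpl22 by 0.21 without the 2 libraries (adjusted p = 0.0889 for each, exact permutation). Leaving out 1 library at a time gave 1.04 to 1.31 and 0.22 to 0.27, and leaving out an uninduced one gave an adjusted p of 0.0727, which follows from the smaller number of libraries. Apart from these ratios, the cause was not tested. Among the counts, medians, ratios and shares over members, single genes aside, 556 values were classed as kept, 36 as moved and 8 as missing the threshold. Counts, medians and the ratios within single comparisons were classed by size alone, so a change of sign near 0 counted as kept. The median with both hairpins, for example, ran from -0.01 to 0.08 when 1 library was left out. The ratios over all induced libraries were also classed by direction, and none reversed.

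The deviations of same-numbered libraries had correlations of -0.22 to 0.31, above 0.1 in 6 of 18 pairs, against -0.27 to 0.39 and 3 of 36 for different numbers. Among induced groups all 9 same-number pairs were positive (0.03 to 0.31), and different numbers gave -0.21 to 0.09. The labels name no shared culture or day and not every pair was above 0.1, so the numbers were not taken to pair the samples. With the replicate block 5 members rose and 7 fell on induction, 1 rose and 1 fell with the Trim28 hairpin, 2 rose with both hairpins, and 4 rose between the knockdowns, the addition being Rps27l (adjusted p = 0.0485). Depth limits the paralogs of few reads: Rpl3l had 3 reads in all.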
